A study of Homo sapiens with 66 samples.

Results

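HIF-1α and HIF-2α binding was compared in HKC-8 cells that kept only 1 of the isoforms. HIF-1α was precipitated from cells whose HIF-2α gene was disrupted (HIF-2α KO), and HIF-2α from cells whose HIF-1α gene was disrupted (HIF-1α KO). The members are the 4 peak lists of these libraries, 2 for each isoform, chosen by antibody and genotype from the 50 ChIP-seq peak lists of the series. They hold 13954 of its 131425 peaks. HKC-8 is labelled a human kidney proximal tubule line, and a list of binding sites cannot check that label by marker genes. Both knockouts were made by CRISPR-Cas9 and carry frameshifts, each line was 1 clone, and all cells were kept in 0.5% oxygen for 16 h. The series also holds HIF-1β libraries from the same clones, and HIF-1α, HIF-2α and HIF-1β libraries from wild-type (WT) HKC-8 cells treated alike. A separate HKC-8 experiment on the severity and duration of hypoxia, and RCC4 and HepG2 cells, complete it. The RCC4 cells are labelled normoxic, and the HepG2 cells were kept in 0.5% oxygen for 16 h.

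HIF-1 and HIF-2 are dimers of an oxygen-regulated α subunit with the constitutive HIF-1β subunit. In normal oxygen the α subunits are hydroxylated on proline, recognised by the VHL protein and degraded. In hypoxia they accumulate, pair with HIF-1β and bind the hypoxia response element (HRE), whose core reads ACGTG or GCGTG. HIF-1 is known for the genes of glycolysis and HIF-2 for genes of growth, differentiation and erythropoiesis, with many targets in common.

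The isoform, its antibody and the clone changed together in this design, so their parts in any difference cannot be told apart. HIF-1α was precipitated with the PM14 antiserum and HIF-2α with PM9. Each group has 2 replicates, which the study calls independent experiments, and the labels do not say whether these were separate cultures of a clone. The p-values measure only the spread between these libraries.

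Peaks of the 4 lists that overlapped by at least 1 bp were merged to 7902 sites. A site was HIF-1-only when each HIF-1α library and no HIF-2α library had a peak there, HIF-2-only in the reverse case, and shared when all 4 had one. There were 156 HIF-1-only, 3517 HIF-2-only and 440 shared sites. All other sites, with any other pattern of calls, were put in no class. Sequences were printed only for sites with an HRE core within 100 bp of the centre, so that each holds a core was fixed in advance. The sequences that follow show the core nearest the site centre, with 28 bases to either side, at high-ranking sites of each class and at 4 more listed metabolic and chromatin genes. They are from GRCh37, read 5′ to 3′ on the strand that carries ACGTG or GCGTG at the middle, and the capitals mark HRE cores, on either strand, and AP-1 motifs (TGACTCA or TGAGTCA).

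At HIF-1-only sites none of the printed windows held an AP-1 motif.
PPM1H, chr12:63276627-63276687, plus strand: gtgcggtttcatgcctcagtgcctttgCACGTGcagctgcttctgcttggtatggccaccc
ANKZF1, chr2:220095051-220095111, minus strand: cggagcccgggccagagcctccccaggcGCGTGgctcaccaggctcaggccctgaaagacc
HK2, chr2:75060860-75060920, plus strand: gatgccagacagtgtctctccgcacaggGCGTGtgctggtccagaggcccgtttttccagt
KDM5B, chr1:202780490-202780550, minus strand: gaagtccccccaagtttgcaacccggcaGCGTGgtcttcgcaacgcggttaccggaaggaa

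At shared sites the MRPL45, DDIT4 and LDHA windows each held 2 cores.
MRPL45, chr17:36442690-36442750, minus strand: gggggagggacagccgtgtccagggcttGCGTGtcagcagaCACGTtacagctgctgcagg
DDIT4, chr10:74020748-74020808, minus strand: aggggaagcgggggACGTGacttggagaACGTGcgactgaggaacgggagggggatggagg
PKM, chr15:72519189-72519249, plus strand: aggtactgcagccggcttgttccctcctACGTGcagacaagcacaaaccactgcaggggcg
LDHA, chr11:18416009-18416069, minus strand: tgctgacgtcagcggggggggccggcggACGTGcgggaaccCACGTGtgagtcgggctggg

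At HIF-2-only sites, windows with an HRE core alone are followed by the best-ranked windows with an AP-1 motif as well. The latter were picked after their values were seen, for that motif.
NKD2, chr5:958285-958345, plus strand: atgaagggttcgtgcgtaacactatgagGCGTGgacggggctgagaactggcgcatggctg
TGFA, chr2:70823926-70823986, minus strand: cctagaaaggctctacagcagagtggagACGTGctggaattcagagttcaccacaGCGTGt
PFKP, chr10:3149740-3149800, minus strand: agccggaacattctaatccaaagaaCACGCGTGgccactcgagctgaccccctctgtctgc
TSPAN2, chr1:115722257-115722317, minus strand: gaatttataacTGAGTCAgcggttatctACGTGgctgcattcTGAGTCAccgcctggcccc
HES1, chr3:193807538-193807598, minus strand: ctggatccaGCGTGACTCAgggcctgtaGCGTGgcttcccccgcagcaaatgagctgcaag

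HIF-1α was called at far fewer places than HIF-2α. The lists held 1271 and 915 HIF-1α peaks in the HIF-2α KO libraries, and 5228 and 6540 HIF-2α peaks in the HIF-1α KO libraries. The number of peaks did not overlap between the isoforms and had a log2 ratio of −2.43 on chromosomes 1 to 22, X and Y. An exact permutation test of 2 libraries against 2 has 6 arrangements and cannot give a two-sided p under 0.33. That p of 0.33 was found for this and for each of the other 7 differences tested (adjusted p 0.33, Benjamini-Hochberg over 8 exact permutation tests), so no comparison between the isoforms could pass a threshold of 0.05. Depth is not recorded in a peak list and can raise the number of peaks, so its part in this difference was not tested.

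As a share of the shorter list, replicates of an isoform overlapped more than libraries of different isoforms. The HIF-1α replicates had 72.3% of the shorter list in common and the HIF-2α replicates 83.3%. This did not hold for the longer HIF-1α list, replicate 1. Of its peaks 51.7% overlapped replicate 2, against 61.9% and 65.1% that overlapped the HIF-2α lists. Across isoforms, 57.3% to 65.1% of the HIF-1α peaks overlapped a HIF-2α peak, while 8.63% to 15.003% of the HIF-2α peaks overlapped a HIF-1α peak. The mean overlap within isoforms exceeded that across isoforms by 16.3 percentage points of the shorter list (exact permutation p 0.33, the smallest possible). With each list shortened to its 912 best-scoring peaks the excess was 37.5 percentage points.

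HIF-1α peaks lay close to transcription start sites (TSSs) and HIF-2α peaks mostly far from them. Within 1 kb of a protein-coding TSS lay 31.5% and 43.1% of the HIF-1α peaks, and 8.49% and 10.4% of the HIF-2α peaks. The median distance was 8.53 and 3.13 kb for HIF-1α, and 27.4 and 25.2 kb for HIF-2α. Every HIF-1α library was above every HIF-2α library in promoter share and below it in distance. The mean promoter share differed by 27.8 percentage points, more than the larger replicate SD of 8.22 (exact permutation p 0.33, the smallest possible), and by 28.2 with lists of equal length.

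**Figure D1:**
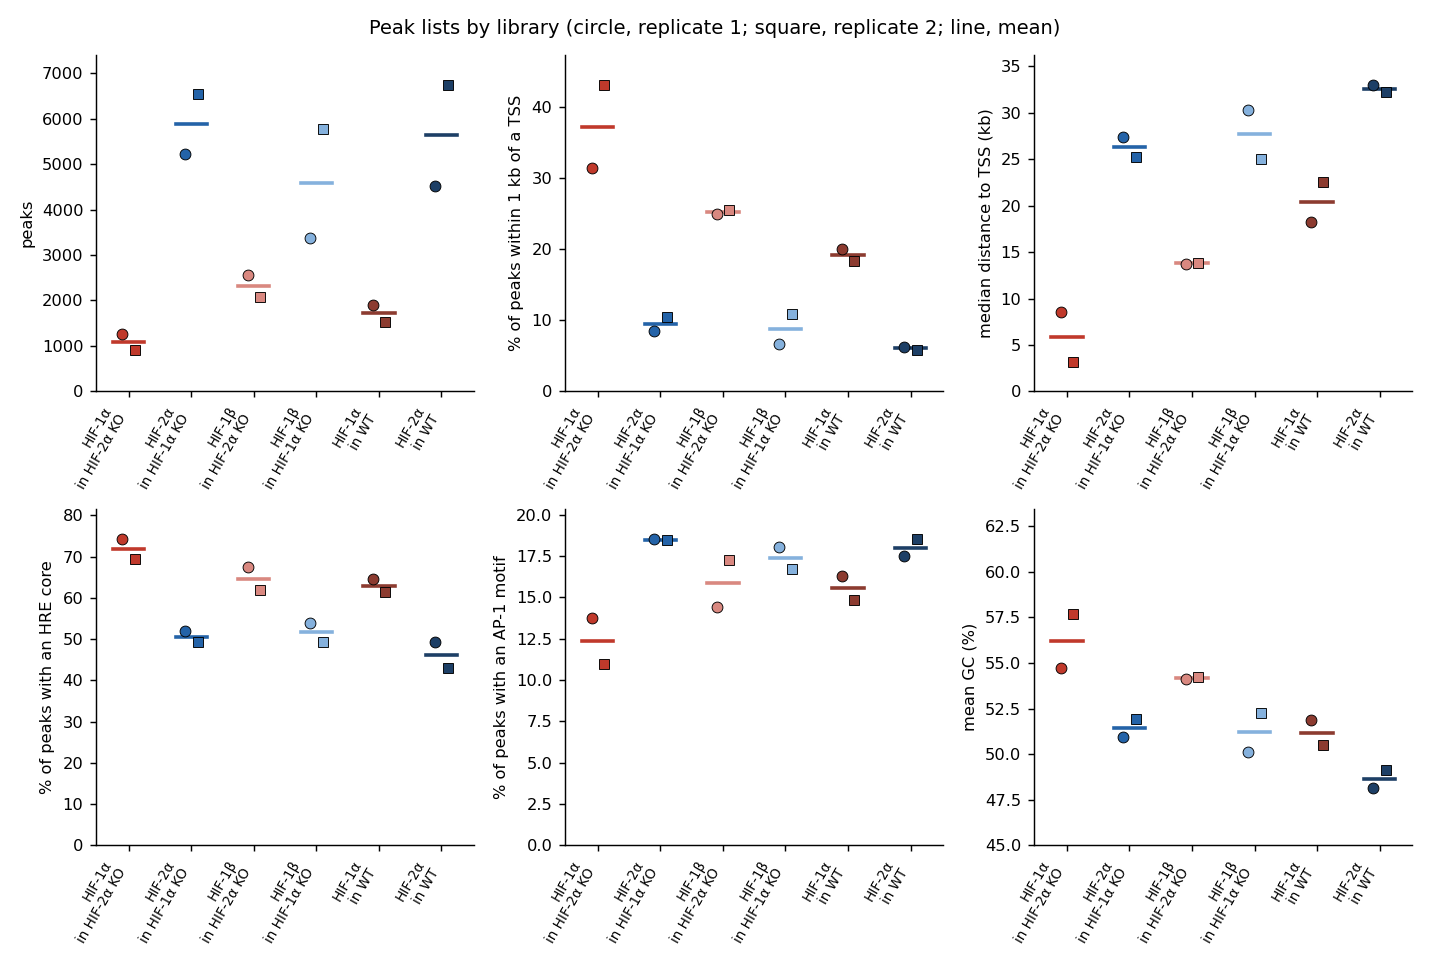
Peaks, promoter share, median distance to a TSS, HRE share, AP-1 share and GC content (vertical axes, units as labelled; the GC axis starts at 45%) for each library of the 4 knockout groups and of HIF-1α and HIF-2α in WT cells. Points are libraries and lines are means of 2. In all 6 panels the HIF-1α libraries of HIF-2α KO cells do not overlap the HIF-2α libraries of HIF-1α KO cells.

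The gap was wide next to the start site and turned around far from it. Within 0.1 kb of a TSS lay 10.8% and 17.2% of the HIF-1α peaks, against 2.61% and 3.03% of the HIF-2α peaks. From 1 to 3 kb the shares were 8.28% and 6.69% for HIF-1α, and 6.07% and 6.18% for HIF-2α, which put the lists close together. From 30 to 100 kb the order was reversed, with 17.7% and 14.7% for HIF-1α, and 26.9% and 25.4% for HIF-2α.

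**Figure D2:**
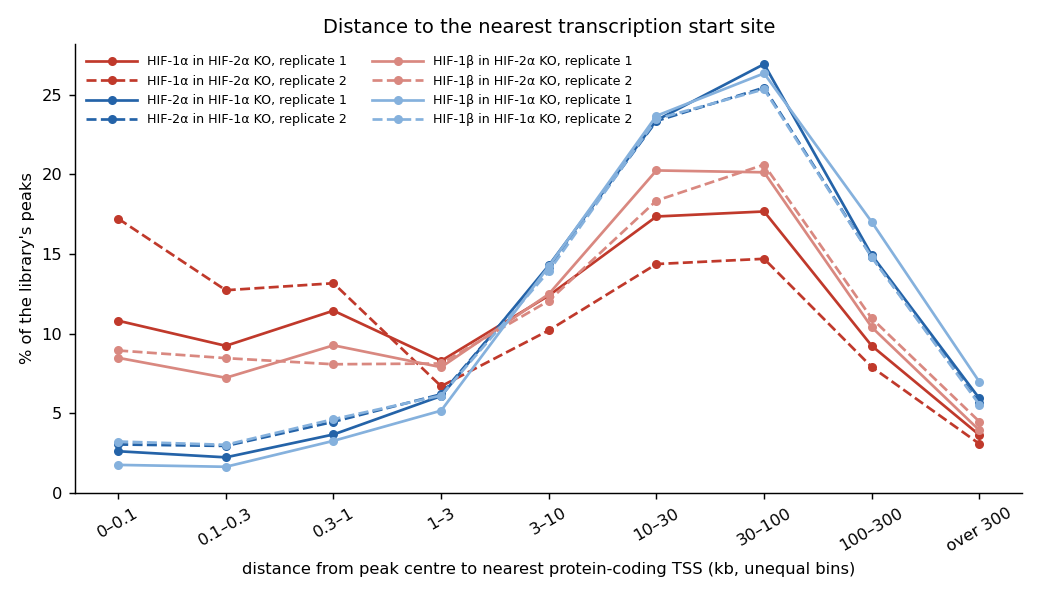
Share of each library's peaks (vertical axis, %) by distance from the peak centre to the nearest protein-coding TSS (horizontal axis, kb, unequal bins), for the HIF-1α, HIF-2α and HIF-1β libraries of the knockout cells. Solid lines are replicate 1 and dashed lines replicate 2. Each HIF-1α line lies above each HIF-2α line below 1 kb, and each HIF-2α line, at 26.9% and 25.4%, lies above each HIF-1α line, at 17.7% and 14.7%, from 30 to 100 kb.

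HIF-1β, precipitated with 1 antibody from both clones, was also nearer to promoters in the cells that kept HIF-1α. Its promoter share was 24.95% and 25.5% in HIF-2α KO and 6.64% and 10.8% in HIF-1α KO cells (16.5 percentage points, exact permutation p 0.33, the smallest possible). The HRE share of HIF-1β peaks was 67.5% and 61.9% in HIF-2α KO, and 53.9% and 49.3% in HIF-1α KO cells. Their AP-1 share, at 14.4% and 17.2% against 18.04% and 16.7%, overlapped between the genotypes (exact permutation p 0.67). The HIF-1β contrast does not involve a change of antibody, but the clone still changes with the isoform.

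The HRE core was more frequent in HIF-1α lists, at 74.2% and 69.3% of peaks within 100 bp of the centre, than in HIF-2α lists, at 51.9% and 49.2%. In windows 2 kb away it was present in 24.1% and 23.7%, and in 22.9% and 22.9%. The difference of 21.2 percentage points was larger than the replicate SDs of 3.47 and 1.92. The AP-1 motif, bound by FOS and JUN dimers, went the other way, at 13.7% and 10.96% for HIF-1α against 18.5% and 18.4% for HIF-2α, a difference of −6.13 percentage points. Windows 2 kb away held AP-1 in 3.19% and 3.89%, and in 3.79% and 3.88%. Mean GC content was 54.7% and 57.7% for HIF-1α and 51.0% and 51.9% for HIF-2α. Each of these 3 measures gave an exact permutation p of 0.33. With lists of equal length their differences were smaller, at 14.3 percentage points for HRE, −3.51 for AP-1 and 3.65 for GC content.

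Promoters are GC-rich, so motif shares were also taken over peaks more than 1 kb from a TSS, a split chosen after the data were seen. The HRE difference was then 20.6 percentage points, about as large as before. The AP-1 difference was −2.66 and the GC difference 2.34 percentage points, both smaller than over all peaks by more than 1.5 times. When the whole peak was searched, the HRE difference was 8.78 and the AP-1 difference −12.2 percentage points.

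The same measures were taken in cells with both isoforms, where not all of them stood in the same order. In WT cells the HIF-1α mean exceeded the HIF-2α mean by 13.2 percentage points for promoter share and by 16.7 for HRE share, and AP-1 share differed by −2.44. In the 16 h libraries of the separate experiment in 0.5% oxygen the differences were 18.4, 1.64 and −8.23 percentage points. The HRE shares of the isoforms overlapped there. Over peaks more than 1 kb from a TSS, the HRE difference was 15.98 percentage points in WT cells and −7.30 in the separate experiment, where the isoforms overlapped. The AP-1 difference over these peaks was −0.72 in WT cells, with overlap, and −7.17 in the separate experiment. The GC difference, at 1.28 and 0.71 percentage points, came with overlap in both. No library is shared between these 3 comparisons.

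Most HIF-1α sites were also HIF-2α sites, and few HIF-2α sites were HIF-1α sites. Of 655 sites called in both HIF-1α libraries, 67.2% were called in both HIF-2α libraries (95% exact binomial interval 63.4% to 70.8%), 9.01% in 1 and 23.8% in neither (20.6% to 27.3%). Of 4317 sites called in both HIF-2α libraries, 10.2% were called in both HIF-1α libraries (9.31% to 11.1%), 8.34% in 1 and 81.5% in neither. These and later intervals cover counting error over sites only. The classes depended on list length. With each list shortened to 912 peaks there were 307 HIF-1-only, 399 HIF-2-only and 253 shared sites. Replicate 1 of both isoforms without replicate 2 gave 483, 4436 and 781, and replicate 2 without replicate 1 gave 350, 5968 and 559, since fewer libraries then had to call a site.

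Shared sites ranked high in the HIF-2α lists. Their median score percentile within a list was 91.4 and 92.3 in the HIF-2α libraries and 76.9 and 66.6 in the HIF-1α libraries, where a percentile of 50 is the middle of the list. HIF-1-only sites had median percentiles of 64.1 and 57.4 and HIF-2-only sites 52.9 and 61.3. At shared sites, peak centres of different isoforms lay a median of 85 and 74.5 bp apart, against 62 bp between HIF-1α and 64 bp between HIF-2α replicates.

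The 3 classes were placed differently in the genome. HIF-1-only sites lay within 1 kb of a TSS in 68.6% (60.7% to 75.8%), shared sites in 26.8% (22.7% to 31.2%) and HIF-2-only sites in 6.23% (5.45% to 7.08%). With lists of equal length these shares were 55.05% for HIF-1-only and 16.996% for shared sites. Median distances were 0.386 kb, 11.8 kb and 29.0 kb, and the HIF-1-only median was 0.956 kb from replicate 1 alone. More than 50 kb away were 7.69% of HIF-1-only, 24.3% of shared and 36.3% of HIF-2-only sites. The centre fell in a UTR in 19.2%, 8.64% and 2.62%, in an intron in 39.1%, 43.9% and 48.8%, and in no gene in 34.6%, 45.7% and 47.6%. The window from 100 bp before to 100 bp after the centre held a median of 12 CpG dinucleotides at HIF-1-only, 5 at shared and 3 at HIF-2-only sites.

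An HRE core was present within 100 bp of the centre at 75.9% of shared sites (71.6% to 79.8%), 69.2% of HIF-1-only (61.4% to 76.4%) and 50.9% of HIF-2-only sites (49.2% to 52.5%). Windows 2 kb from the sites held it in 22.05%, 26.3% and 23.03%. With lists of equal length the shared and HIF-1-only classes changed places, at 71.9% and 73.6%, and HIF-2-only sites had 55.4%. At least 2 cores were present at 31.6% of shared, 31.4% of HIF-1-only and 13.5% of HIF-2-only sites, as in the DDIT4 sequence above. The core nearest the centre read ACGTG, rather than GCGTG, at 69.5% of shared sites with a core (64.2% to 74.4%), 55.6% of HIF-1-only (45.7% to 65.1%) and 59.1% of HIF-2-only sites (56.8% to 61.4%). A T stood before it in 41.9%, 25.9% and 31.3%.

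AP-1 was found at 18.7% of HIF-2-only (17.5% to 20.1%), 18.2% of shared (14.7% to 22.1%) and 8.33% of HIF-1-only sites (4.51% to 13.8%). The HIF-1-only share was 4.57% without replicate 1, 3.96% at a score of at least 100 and 11.7% with lists of equal length. Windows 2 kb away held it in 3.95%, 3.64% and 4.17%. HRE and AP-1 occurred together at 364 HIF-2-only sites (10.3%), 67 shared sites (15.2%) and 8 HIF-1-only sites (5.13%). Their centres lay a median of 45 bp apart at HIF-2-only sites with both, with quartiles of 19 and 74.3 bp. The letters of the motifs overlapped at 37 of these 364 sites, as in the HES1 sequence above. Neither motif was present at 40.7% of HIF-2-only, 21.1% of shared and 27.6% of HIF-1-only sites.

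Other motifs also differed over all sites. GGAATG, the core of TEAD sites, was present at 23.8% of HIF-2-only, 16.8% of shared and 13.5% of HIF-1-only sites, against 10.9%, 12.8% and 8.65% in windows 2 kb away. TGTGGT, the core of RUNX sites, was present at 17.7%, 11.4% and 5.77%, against 13.7%, 12.4% and 12.2%. CCGGAA, the core of ETS sites, had the reverse order, at 3.78%, 7.05% and 18.6%, as did the GC box GGGCGG at 8.39%, 16.6% and 25.6%. All motifs were searched on both strands, and an ACGTG core is part of the palindromic E-box CACGTG, which was found at 7.51%, 7.95% and 14.7%.

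Part of these differences went with the distance to a TSS. Among sites within 1 kb of a TSS, ETS was present at 23.4% of HIF-1-only (15.7% to 32.5%), 18.6% of shared (12.1% to 26.9%) and 10.96% of HIF-2-only sites (7.15% to 15.9%), and at 15.5% of windows at all protein-coding TSSs. The GC box was present at 34.6%, 37.3% and 22.8%, and at 43.5% of the windows at all TSSs. Those windows were centred on the TSS, whereas the site centres lay up to 1 kb from one, so these shares are not like for like. Among sites more than 1 kb away, AP-1 was present at 16.3% of 49 HIF-1-only (7.32% to 29.7%), 21.4% of 322 shared (17.1% to 26.3%) and 19.2% of 3298 HIF-2-only sites (17.9% to 20.6%), and these intervals overlapped. Near a TSS the HRE share was 81.4% (73.1% to 87.9%) at shared, 72.0% (62.5% to 80.2%) at HIF-1-only and 58.0% (51.2% to 64.6%) at HIF-2-only sites. Farther away these shares were 73.9% (68.8% to 78.6%), 63.3% (48.3% to 76.6%) and 50.4% (48.7% to 52.1%). In both settings the HIF-1-only interval overlapped those of the other classes, whereas the shared and HIF-2-only intervals lay apart.

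**Figure D3:**
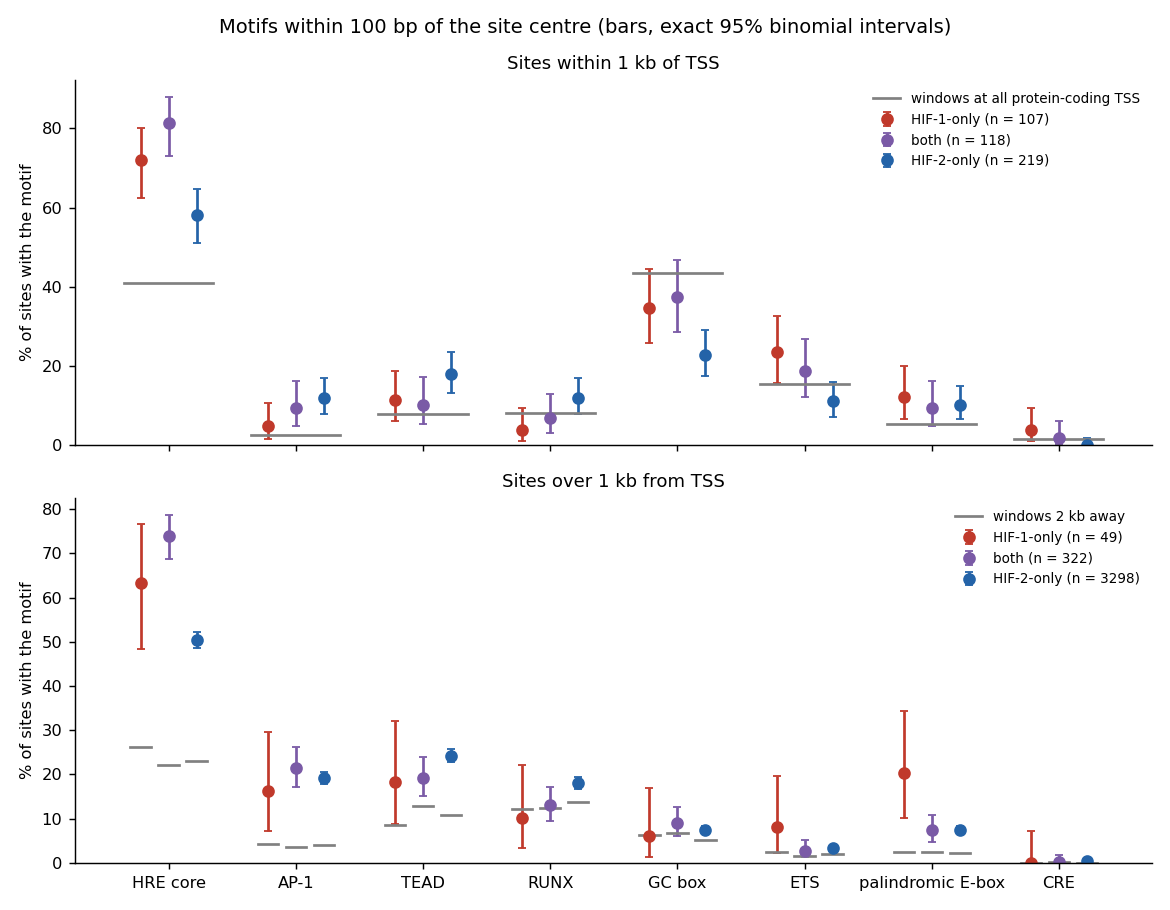
Share of sites (vertical axis, %) with each motif within 100 bp of the centre, by class, near a TSS (upper panel) and farther away (lower panel). Points are shares, bars exact 95% binomial intervals and grey lines the same search in background windows. These were centred on all protein-coding TSSs (upper panel) or lay 2 kb from all sites of the class, those near a TSS included (lower panel). HRE shares lie above the grey lines in every class, and the AP-1 intervals of the 3 classes overlap in the lower panel.

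The classes were then looked up in libraries that had not defined them. In HIF-2α KO cells HIF-1β was called at 98.1% and 95.5% of HIF-1-only sites, and in HIF-1α KO cells at 0 and 7 of the 156 sites (4.49%). The exact 95% binomial limit for a count of 0 is 2.34%. HIF-2-only sites had a HIF-1β call at 62.2% and 86.1% in HIF-1α KO cells, and at 22.1% and 17.8% in HIF-2α KO cells. Shared sites had one in 97.95% to 99.5% in HIF-2α KO cells, and at 367 and 418 of 440 in HIF-1α KO cells. The same sites moved by 10 kb were called in 0% to 4.55% of cases.

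Of the HIF-1β peaks at sites of either single-isoform class, those at HIF-1-only sites made up 16.4% and 19.2% in HIF-2α KO, 0% and 0.231% in HIF-1α KO, and 5.69% and 4.91% in WT cells. The knockouts did not overlap and differed by 17.7 percentage points (exact permutation p 0.33, the smallest possible). The HIF-α and HIF-1β libraries of a genotype came from the same clone.

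The HIF-1β calls at HIF-2-only sites in cells without HIF-2α were followed further, after their number was seen. At the 242 HIF-2-only sites with HIF-1α called in both WT libraries, HIF-1β was called in HIF-2α KO cells at 161 and 121. At the 2864 sites with HIF-1α in no WT library it was called at 15.2% and 13.1%. The 2506 sites without such a call in either library had an HRE core in 49.9% (47.9% to 51.9%) and AP-1 in 18.4%, close to the 49.5% (44.4% to 54.5%) and 19.3% of the 394 sites called in both. HIF-1β lists of HIF-2α KO cells held 2549 and 2082 peaks against 1268 and 912 in the HIF-1α lists, and 44.1% and 36.3% of their peaks overlapped a HIF-1α peak of the same replicate number. In HIF-1α KO cells 88.0% and 83.1% of the HIF-1β peaks overlapped a HIF-2α peak.

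**Figure D4:**
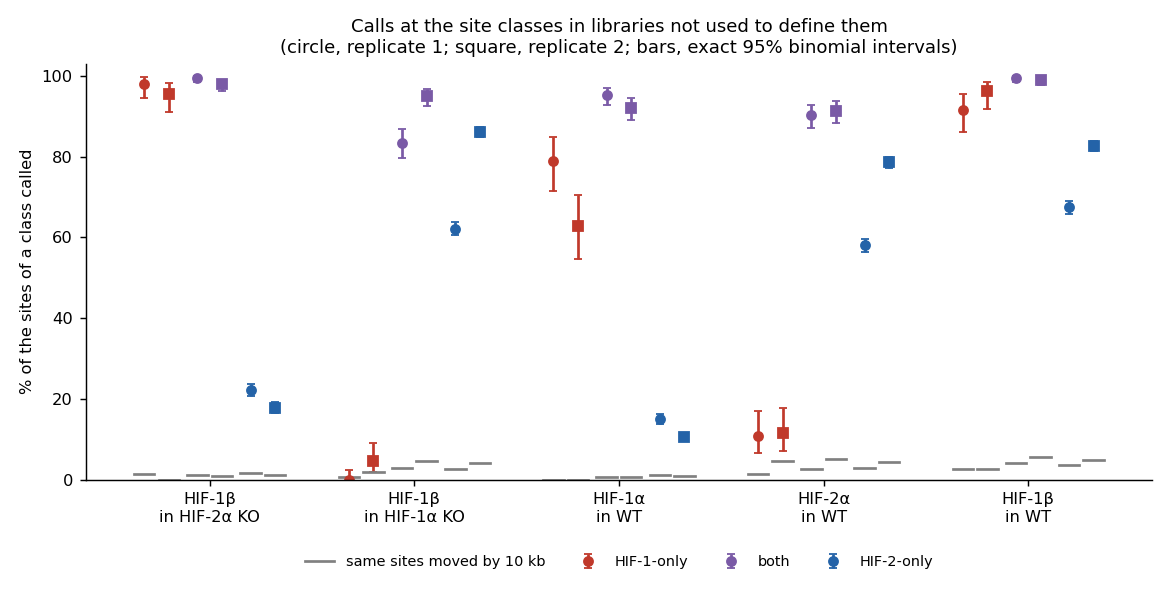
Share of the 156 HIF-1-only, 440 shared ("both") and 3517 HIF-2-only sites (vertical axis, %) called in HIF-1β libraries of the knockout cells and in WT libraries. Circles and squares are replicates 1 and 2, bars exact 95% binomial intervals over sites, and grey lines the same sites moved by 10 kb. In HIF-1α KO cells HIF-1β is at or near 0 at HIF-1-only sites, whereas HIF-2-only sites keep 22.1% and 17.8% in HIF-2α KO cells.

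In WT cells, which have both isoforms, the isoform that had defined a class was called more often at its sites. At HIF-1-only sites HIF-1α was called in 78.8% and 62.8%, and HIF-2α in 10.9% and 11.5%. At HIF-2-only sites HIF-1α was called in 15.01% and 10.4%, and HIF-2α in 58.1% and 78.6%. At shared sites HIF-1α was called in 95.2% and 92.0%, and HIF-2α in 90.2% and 91.4%. The opposite class, both WT libraries of the other isoform and neither of its own, was met at 0 of 156 HIF-1-only sites, with a limit of 2.34%, and at 1 of 3517 HIF-2-only sites. All 4 WT libraries called 83.6% of the shared sites.

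Read from the WT classes, the picture was less even. Of 875 sites called in all 4 WT libraries, 90.4% had HIF-2α in both HIF-1α KO libraries, but 44.2% (40.9% to 47.6%) had HIF-1α in both HIF-2α KO libraries. Of 142 WT HIF-1-only sites, 64.8% had HIF-1α in both HIF-2α KO libraries and 23.2% had HIF-2α in any HIF-1α KO library. Of 2367 WT HIF-2-only sites, 59.7% had HIF-2α in both HIF-1α KO libraries and 1.90% had HIF-1α in any HIF-2α KO library. Without HIF-2α the HIF-1α lists were shorter, at 1268 and 912 against 1910 and 1529 WT peaks on the same chromosomes. The study also reports slightly less HIF-1α protein in the HIF-2α KO cells. The parts of list length and of protein level in the 44.2% were not tested.

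How often the sites of each class recurred in other cells and conditions differed between lines and antibodies. RCC4, a kidney cancer line that lacks VHL, was sampled in normoxia. HIF-1α was called in it at 83.3% and 50.6% of HIF-1-only, 79.3% and 57.5% of shared, and 19.5% and 3.72% of HIF-2-only sites. HIF-2α was called there at 15.4% and 6.41% of HIF-1-only, 70.7% and 50.9% of shared, and 26.9% and 13.7% of HIF-2-only sites. HIF-1β was called in RCC4 at 30.1% and 30.1% of HIF-1-only, 50.2% and 48.0% of shared, and 3.16% and 2.67% of HIF-2-only sites. For HepG2 only HIF-1β calls are given, and the first 2 classes stood in the reverse order of HIF-1β in RCC4. HIF-1β was called in HepG2 at 78.8% and 74.4% of HIF-1-only, 56.8% and 50.5% of shared, and 8.44% and 4.35% of HIF-2-only sites. Of the 46 other libraries in the series, a median of 23 called a shared site, 13 a HIF-1-only site and 6 a HIF-2-only site. Among HIF-2-only sites, 74 were called in none of the 46.

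Sites were linked to the nearest protein-coding TSS within 100 kb, a rule of position only. Of 19794 genes, 146 (0.738%) had a HIF-1-only site, 1967 (9.94%) a HIF-2-only site and 359 (1.81%) a shared site, and 2309 (11.7%) had any. Within 1 kb the numbers were 105 (0.53%), 213 (1.08%) and 117 (0.591%). Both single-isoform classes met at 22 genes without a shared site and at 1 with one, while 138 genes had HIF-2-only and shared sites. HIF-1-only sites came singly at most of their genes, with 2 at only 4 genes. For HIF-2-only sites, 527 genes had 2 or more, with 8 at EGFR, the EGF receptor, and 7 each at FRMD4A, HES1, a Notch target, and KAZN. There were 3517 HIF-2-only sites against 156 HIF-1-only sites, and a larger class has more genes with repeats by number alone. The part of class size in these counts was not tested.

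The best-ranked HIF-1-only sites were at CBX5, PPM1H, ANKZF1, MYL4 and PPP1R3E. The site at CBX5, which encodes a heterochromatin protein, lay 0.072 kb from the TSS, in the UTR, at chr12:54652596-54653870. Its MACS scores (10 times the negative log10 of p, with 50 the lowest listed) were 979 and 582 for HIF-1α and 1253 and 729 for HIF-1β in HIF-2α KO cells, and no library of HIF-1α KO cells called it. It held no HRE core within 100 bp of its centre, and neither did the MYL4 site. The ANKZF1 site, 0.352 kb from the TSS, had HIF-1α scores of 1045 and 433. The PPP1R3E site, 0.113 kb from the TSS of a glycogen phosphatase subunit, had 574 and 547. PPM1H at 52.3 kb and MYL4 at 10.2 kb were the distal ones. In WT cells 4 of these 5 sites had a HIF-2α call. MYL4, with scores of 218 and 320, and PPM1H, with 115 and 65.99, were called in both libraries, and CBX5 and ANKZF1 in 1 each.

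The best-ranked HIF-2-only sites were at TGM2, NKD2, SLC25A51, TGFA and ICOSLG, all from 7.69 to 50.6 kb from the TSS. TGFA encodes a ligand of the EGF receptor. Its site, 42.9 kb away, had HIF-2α scores of 2613 and 3100, and scores of 3100 and above were ranked as ties. HIF-1α was not called there in HIF-2α KO cells, but was called in WT cells with scores of 138 and 178. The site of TGM2, the tissue transglutaminase, was 39 kb from the TSS in an intron, with HIF-2α scores of 3101 and 3100. In HIF-2α KO cells it had no HIF-1α call and HIF-1β scores of 97.9 and 101. The TGM2 and SLC25A51 sites held no HRE core within 100 bp of the centre. NKD2, an inhibitor of Wnt signalling, had HIF-2α scores of 3100 and 3100 at 50.6 kb and no HIF-1α call in WT cells.

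Shared sites of the highest rank were at MRPL45, DDIT4, PKM, SCARB1 and BHLHE40. The MRPL45 site, 10.2 kb from the TSS, had HIF-1α scores of 2206 and 1270 and HIF-2α scores of 3100 and 3100. DDIT4, an inhibitor of mTOR signalling, had 1082 and 1548 for HIF-1α and 3100 and 3100 for HIF-2α at a site 12.9 kb away, and was the gene with the most shared sites, 3. PKM, pyruvate kinase, had 1723 and 1412 for HIF-1α and 2461 and 2596 for HIF-2α in an intron 1.78 kb from the TSS. BHLHE40, a transcriptional repressor, had no HRE core within 100 bp of the centre and scores of 1121 and 997 for HIF-1α and 3100 and 3100 for HIF-2α. Scores rank peaks within a list, and those of different lists are given side by side with no test between them.

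Of 104 genes in 11 lists of HIF target pathways and kidney genes, 35 had a shared site, 38 a HIF-2-only site and 3 a HIF-1-only site. No class site was linked to 46. A gene without a class site can still have peaks in some of the 4 libraries. Over the 104 genes the classes are compared with the share of all genes. Against the background of 1.81% of genes with a shared site, 9.94% with a HIF-2-only and 0.738% with a HIF-1-only site, these are 35, 38 and 3 of 104. The lists were assembled from known HIF biology, so the counts describe them. At lists of equal length, 27 genes had a shared, 9 a HIF-2-only and 17 a HIF-1-only site, which moves genes between classes. Genes with a HIF-1-only site numbered 13 without replicate 2 and 4 without replicate 1.

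Glycolysis and glucose uptake was mostly a list of shared sites. Of its 22 genes, 11 had a shared site, for 9 of them within 1 kb of the TSS, 7 a HIF-2-only site and 1 a HIF-1-only site. GAPDH had scores of 1863 and 1038 for HIF-1α and 1391 and 1464 for HIF-2α at 0.306 kb. LDHA, lactate dehydrogenase, had 207 and 992 for HIF-1α and 2951 and 3100 for HIF-2α at 0.037 kb, with the pair of cores printed above. PFKFB4, which sets an activator of glycolysis, had 2040 and 1284 for HIF-1α and 131 and 95.04 for HIF-2α at 0.174 kb. PGK1, phosphoglycerate kinase, had 951 and 1190 for HIF-1α and 148 and 328 for HIF-2α. With lists of equal length the PFKFB4 and PGK1 genes had HIF-1-only sites, as did ENO1, ENO2, HK2, PDK1 and PFKFB3.

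HK2, hexokinase, was the glycolytic gene with a HIF-1-only site. It lay 0.369 kb from the TSS, with 3 HRE cores within 100 bp of its centre, HIF-1α scores of 507 and 234 and WT HIF-1α scores of 397 and 219. No HIF-2α library of HIF-1α KO or WT cells called it. A separate HIF-2-only site stood in an intron of HK2, 30.6 kb from the TSS, with scores of 185 and 253. PFKP, phosphofructokinase, had a HIF-2-only site at 2.81 kb with scores of 522 and 388, and SLC2A1, a glucose transporter, had one at 6.17 kb with 80.7 and 130. No class site was linked to the other 7 genes, HK1, PFKL, ALDOC, TPI1, PGAM1, SLC16A3 and PDK3.

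Mitophagy and stress genes had shared sites at 6 of 8, and HIF-2-only sites at 4. ANKRD37 had scores of 966 and 1871 for HIF-1α and 873 and 1765 for HIF-2α at 0.214 kb from its TSS. NDRG1 had 1819 and 1285 for HIF-1α and 2538 and 2141 for HIF-2α at a site 73.9 kb away, and a HIF-2-only site at 54.8 kb with scores of 1367 and 1695. The mitophagy receptor gene BNIP3 had no class site, whereas BNIP3L, another receptor, had a shared site 61.1 kb away.

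Histone demethylases had shared sites at KDM3A, KDM4B and KDM2B, 3 of 8, and a HIF-1-only site at KDM5B. KDM3A had a mean score percentile of 98.8 over the 4 lists, with scores of 2636 and 1565 for HIF-1α and 1971 and 1873 for HIF-2α at 0.111 kb. The KDM5B site, 2.95 kb from the TSS, had HIF-1α scores of 251 and 367 and WT HIF-1α scores of 198 and 137, and was called for HIF-2α in neither genotype. Collagen modification had 4 shared of 7, at PLOD2, LOXL2, P4HA1 and LOX. LOXL2, a lysyl oxidase, had 448 and 483 for HIF-1α and 3100 and 3100 for HIF-2α at 11.9 kb, and a HIF-2-only site at 3.69 kb with 949 and 1290.

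Growth genes and kidney transcription factors were lists of HIF-2-only sites. Of 7 growth genes, 4 had one, TGFA, EGFR, MET and AXL, and EGFR also had a shared site at 22.6 kb, with scores of 114 and 90.99 for HIF-1α and 2201 and 2783 for HIF-2α. CCND1, cyclin D1, had none within 100 kb. Of 7 kidney factors, 4 had a HIF-2-only site and none had another class. Among them PAX8 had 384 and 441 at 0.586 kb, LHX1 had 236 and 441 at 35.8 kb, and PAX2 had 223 and 312 at 4.17 kb.

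Integrins and matrix had HIF-2-only sites at 8 of 14 genes and shared sites at 2. ITGA5, an integrin subunit, had a shared site at 13.4 kb with 598 and 387 for HIF-1α and 1713 and 2818 for HIF-2α. The other was at COL4A2, a collagen gene, with 123 and 112 for HIF-1α and 376 and 447 for HIF-2α at 17.1 kb. Among the HIF-2-only sites, 1 at COL5A1 had scores of 730 and 566 and 1 at ITGA3 had 246 and 409. Within 1 kb of a TSS this list had no class site.

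Of the oxygen sensing genes, EGLN3, a prolyl hydroxylase of HIF-α, had a shared site at 12.3 kb with 1560 and 1032 for HIF-1α and 1542 and 1356 for HIF-2α. EGLN1 and HIF3A had HIF-2-only sites and the other 7 of 10 had no class site, VHL and the HIF-1α and HIF-2α genes among them. Of 9 secreted factors, 4 had a shared site, among them ADM, ANGPTL4 and IGFBP3, and 2 had a HIF-2-only site, among them ANGPTL4. VEGFA and EPO had no class site under this rule. CA9, carbonic anhydrase, had a shared site 0.044 kb from its TSS, with 905 and 957 for HIF-1α and 152 and 262 for HIF-2α, and SLC4A4, a bicarbonate cotransporter, had a HIF-2-only site at 4.82 kb.

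Of 8 genes of AP-1 subunits, JUN, FOSL2 and FOS had a class site and the other 5 had none. JUN had a shared site at 28.5 kb with scores of 495 and 416 for HIF-1α and 954 and 1040 for HIF-2α, and FOSL2 had one at 14 kb with 87.1 and 85.1 for HIF-1α and 1165 and 1425 for HIF-2α. Both of these sites held an AP-1 motif. FOS had the third HIF-1-only site of the lists, 19.6 kb from its TSS, with HIF-1α scores of 140 and 105. At that site WT cells had HIF-2α scores of 381 and 412 and 1 HIF-1α call of 279, so its class in knockout cells did not recur in WT cells.

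**Figure D5:**
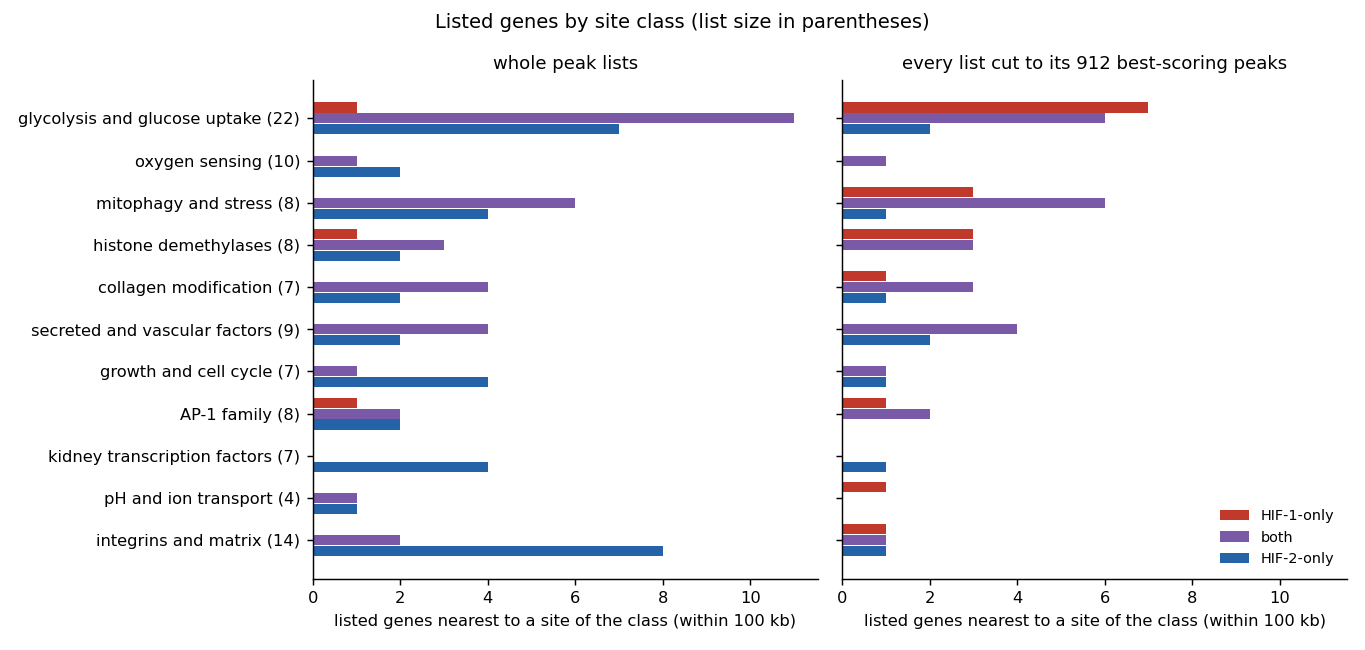
Number of listed genes (horizontal axis) nearest to a HIF-1-only, shared ("both") or HIF-2-only site within 100 kb, for 11 lists with their size in parentheses. The left panel uses the whole peak lists and the right panel the 912 best-scoring peaks of each. In the glycolysis list the counts are 1, 11 and 7 on the left and 7, 6 and 2 on the right.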

How the data were processed

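Per the labels and the study's methods, the authors trimmed reads with Trim Galore 0.3.3, aligned them to GRCh37 with BWA 0.7.5a-r405, marked duplicates with Picard 1.106 and called peaks with MACS for each library against input. The deposited BED lists hold each peak's interval and its score, 10 times the negative log10 of the p-value. The lowest score was 50.0, a p of 1e-05, so a list holds no read counts and no signal at uncalled places. The MACS version, and any depth, are not given in the sources used here, and T-PIC, the other peak caller of the study, whose overlap with MACS it kept, was not used here. Input samples (16 of 66) were not analysed here.

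Peaks of the 4 lists off chromosomes 1 to 22, X and Y (23 of 13954) were left out. No pair of lists was identical. Overlapping peaks (at least 1 bp) were merged, and the centre of a site is the mean of its peak centres. TSS distance used 89204 protein-coding transcripts of GENCODE 44 mapped to GRCh37. Motifs (10 in all) were searched on both strands in a 201-bp window at the centre, with windows 2000 bp to either side as background. Scores served to rank peaks within a list and carry no test, with scores of 3100 and above tied (95 peaks).

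Means of 2 libraries were compared by two-sided exact permutation tests over libraries, with Benjamini-Hochberg adjustment over 8 tests. Shares over sites carry 95% Clopper-Pearson intervals, which treat sites as independent. The text names the 5 best-ranked sites of each class and up to 4 listed genes with a class site per list, and further listed genes were named after their values were seen. A few members that the rule would name are not reported here. The members, gene lists and motifs were chosen with earlier results of these data known. The merging, TSS and motif steps were tested on 700 simulated sites, of which 100% were recovered. Python 3.11.15, NumPy 2.4.6, SciPy 1.17.1, pandas 2.3.3 and samtools 1.23.1 were used.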

Additional observations from a re-analysis of the deposited data

How the results depend on the processing

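All 8 tested differences kept their direction in the 46 alternatives that could be computed for them. These 46 include the replicate block described below, which leaves each difference as it is and could not change a direction. None of the 8 could pass the threshold in a design of 2 against 2. The other alternatives were a score of at least 100, lists of equal length, an overlap of at least 50% of the shorter peak, and other TSS sets or a 5 kb limit. Also used were the motif in the whole peak and peaks over 1 kb from a TSS (added after the data were seen). Genes within 1 kb, and leaving out each replicate number, completed the set. Class counts moved most. At a score of at least 100 there were 101 HIF-1-only, 2268 HIF-2-only and 215 shared sites, and 7 listed genes with a HIF-1-only site. Lists of equal length gave 307, 399 and 253 sites, 17 listed genes with a HIF-1-only and 9 with a HIF-2-only site, and a WT difference of 40.6 percentage points (HIF-1α minus HIF-2α calls) at HIF-1-only sites. Genes within 1 kb of a site numbered 1, 8 and 22 of the listed genes. Without replicate 1 or 2, HIF-1-only sites numbered 350 to 483, HIF-2-only 4436 to 5968 and shared 559 to 781. Listed genes with a HIF-1-only site then numbered 4 to 13, and the WT difference was 28.0 to 41.0 percentage points at HIF-1-only and −55.9 to −37.1 at HIF-2-only sites. Of 45 alternatives for motif and promoter shares of a class, 31 moved by less than the margin of the 95% exact interval (the mean distance of its bounds from the share) and 14 by more. Only the replicate number is shared between the genotypes, with no batch named. Permuting within replicate numbers (the replicate block) left 4 arrangements and an exact permutation p of 0.5, the smallest it allows, for each result tested that way, with the differences as given (27.8 percentage points for the promoter share). The score percentiles of replicates 1 and 2 differed alike across the isoforms with r = 0.14 over 941 sites, and 2 pairs do not show that the numbers pair the libraries. Depth could not be read from the lists.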
